A study of Mus musculus with 40 samples.

Results

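The genes described here encode the proteins of mitochondrial oxidative phosphorylation (OXPHOS) and were followed in RNA-seq of the mouse aorta under angiotensin-II (Ang-II). They were taken by name: every gene whose symbol begins with Ndufa, Ndufb, Ndufc, Ndufs, Ndufv, Uqcr, Cox4, Cox5, Cox6, Cox7, Cox8 or Atp5, together with Sdha, Sdhb, Sdhc, Sdhd, Cyc1 and Cycs, and without Atp5s and pseudogenes. This gave 90 of 17402 listed genes in the genotype experiment and 91 of 15399 in the CsA experiment, 91 distinct genes of which 90 were listed in both (Cox6a2 was listed in the CsA experiment alone). All are protein-coding and all passed the filter on low values. By complex they are 36 complex I subunits, 4 of complex II, 9 of complex III, cytochrome c (Cycs), 10 general subunits of complex IV, 5 tissue isoforms of complex IV subunits (Cox4i2, Cox6a2, Cox6b2, Cox7a1 and Cox8b), 15 genes of the ATP synthase (complex V), the pair Ndufa4 and Ndufa4l2, and Cox7a2l. The rule also takes in 8 complex I assembly factors (Ndufaf genes), which help to build the complex and are not part of it.

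In the respiratory chain, complexes I and II pass electrons from NADH and succinate to coenzyme Q, complex III passes them to cytochrome c, and complex IV passes them to oxygen. Complexes I, III and IV pump protons across the inner mitochondrial membrane, and the ATP synthase uses the return of the protons to make ATP. Most subunits are nuclear genes transcribed in every cell with mitochondria, at high levels in heart muscle and brown fat, and a few complex IV subunits have isoforms that are used in muscle, heart or fat. In the contractile medial layer of the artery wall, smooth muscle makes part of its ATP in this way.

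Each library was made from the pooled RNA of 3 aortas of male mice, stripped of perivascular tissue and adventitia. The genotype experiment used mice labelled as carrying floxed CnB1 (Ppp3r1, the regulatory subunit of calcineurin), all given tamoxifen at 1 mg daily for 5 days at an age of 10 to 12 weeks: Cn-Ctl, labelled as negative for Cre, and mice labelled SM-Cn-/- with Myh11-CreERT2, whose Cre acts in smooth muscle. In the study the name Cn-Ctl also covers Cre carriers with wild-type CnB1, which these labels do not list. They were left untreated or given Ang-II at 1 µg/kg/min by minipump for 2, 6 or 24 h, starting 6 weeks after tamoxifen (3 libraries per group, 2 in Cn-Ctl untreated and in Cn-Ctl at 24 h). The study discarded a replicate of untreated Cn-Ctl that lay apart from the other 2 in a principal component analysis. The strains of this experiment were backcrossed to C57BL/6J. The CsA experiment used C57BL/6J mice, 10 to 12 weeks old in the study's design: WT, and mice that first carried a pump with cyclosporin A (CsA, an inhibitor of the calcineurin phosphatase, 5 mg/kg/day) for 5 days. Each was untreated or given Ang-II at the same rate for 2 or 24 h (3 libraries per group). WT mice were operated at that stage but carried no pump in those 5 days, so that CsA and the presence of a pump cannot be told apart. Treated Cn-Ctl, WT and CsA mice entered only with a systolic pressure above 130 mmHg, whereas the treated mice labelled SM-Cn-/- entered whatever their pressure.

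The libraries held 2728007 to 10250178 reads assigned to genes in the genotype experiment and 18976266 to 38900009 in the CsA experiment, of which 21589 to 93265 and 108102 to 413904 came from the OXPHOS genes. Values below are the deposited signal, read numbers scaled by library size. Of the marker lists of cell types, that of smooth muscle had the highest sum in every library (summed signal of the 9 markers 17073 to 50703). Ppp3r1 overlapped between the genotypes at every time, for example at 78.8 and 104 in Cn-Ctl and at 48.8 to 83.5 in the mice labelled SM-Cn-/- when untreated, and did not pass the test in any of the 4 comparisons between them (lowest adjusted p = 0.429). This count covers the whole gene and did not show the deletion, so the genotype is used as a label throughout. The study tested aortic tissue for CnB1 recombination by PCR and removed mice labelled SM-Cn-/- in which it could not establish the deletion. Its immunoblots of aortic extracts showed less CnB and CnA protein in such mice. Markers of other tissues differed between libraries. The summed signal of 8 brown fat markers (Ucp1, Cidea, Elovl3, Dio2, Ppara, Cpt1b, Slc27a2 and Pank1) ran from 131 to 1404 in the genotype experiment and from 165 to 1218 in the CsA experiment, and that of 10 heart muscle markers reached 1389 and 2210.2 in CsA untreated replicates 1 and 2 against 103 to 625 in the other libraries of that experiment. In bulk RNA, a lower level of a gene per cell and fewer cells that express it cannot be told apart.

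Per kilobase of exon, the most abundant OXPHOS transcripts of the CsA experiment, averaged over its libraries, were Atp5b (189.5 signal per kb), the catalytic beta subunit of the ATP synthase, Cox6a1 (186), Cox4i1 (177) and Atp5a1 (175), the alpha subunit. In the genotype experiment Cox6b1 (199), Cox6a1 (184), Atp5b (161) and Cox4i1 (156) led. In complex IV subunits with isoforms the general form stood higher in both. In the CsA experiment Cox4i1 stood at 177 against 4.01 per kb for Cox4i2, and Cox6b1 at 138 against 1.72 for Cox6b2. Cox8b and Cox7a1, the muscle and brown fat isoforms, stood nearer to the general form there, at 79.6 and 26.3 per kb against 159 for Cox8a and 65.1 for Cox7a2. These averages cover groups that differed: the signal of Cox8b was 6.43 to 17.6 in untreated WT and 47.2 to 76.4 in untreated CsA. The assembly factors were low, between 2.27 and 8.35 per kb.

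As a group, the OXPHOS genes held between 0.521% and 1.31% of the protein-coding signal of a library. In untreated WT aortas the share was 0.670, 0.728 and 0.593%, and in untreated CsA aortas it was 1.23, 1.12 and 1.26%. All 3 CsA libraries lay above all 3 WT libraries. The summed signal was 1.80 ± 0.22 times as high in the CsA group (ratio of the group means, SD propagated from the libraries, n = 3 and 3). After Ang-II, the share in WT was 0.521, 0.770 and 0.629% at 2 h and 0.617, 0.684 and 0.657% at 24 h. In CsA it was 1.04, 0.719 and 0.735% at 2 h and 0.733, 0.737 and 1.18% at 24 h. One library in each treated CsA group (replicate 1 at 2 h and replicate 3 at 24 h) was close to the untreated CsA level, and the other 2 were close to WT.

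In the genotype experiment the untreated libraries labelled SM-Cn-/- had 1.31, 0.748 and 1.157%, a spread wider than any difference between the genotypes, and Cn-Ctl untreated had 0.780 and 0.941%. At 2 h the values were 0.727, 0.678 and 0.636% in Cn-Ctl and 0.676, 0.667 and 0.752% in SM-Cn-/-. At 6 h they were 0.849, 0.565 and 0.704% and 0.758, 0.764 and 0.947%, and at 24 h 0.781 and 0.917% and 0.891, 1.17 and 1.01%. The genotypes overlapped untreated, at 2 h, at 6 h and at 24 h, while within SM-Cn-/- the 3 libraries at 24 h all lay above the 3 at 2 h.

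**Figure D1:**
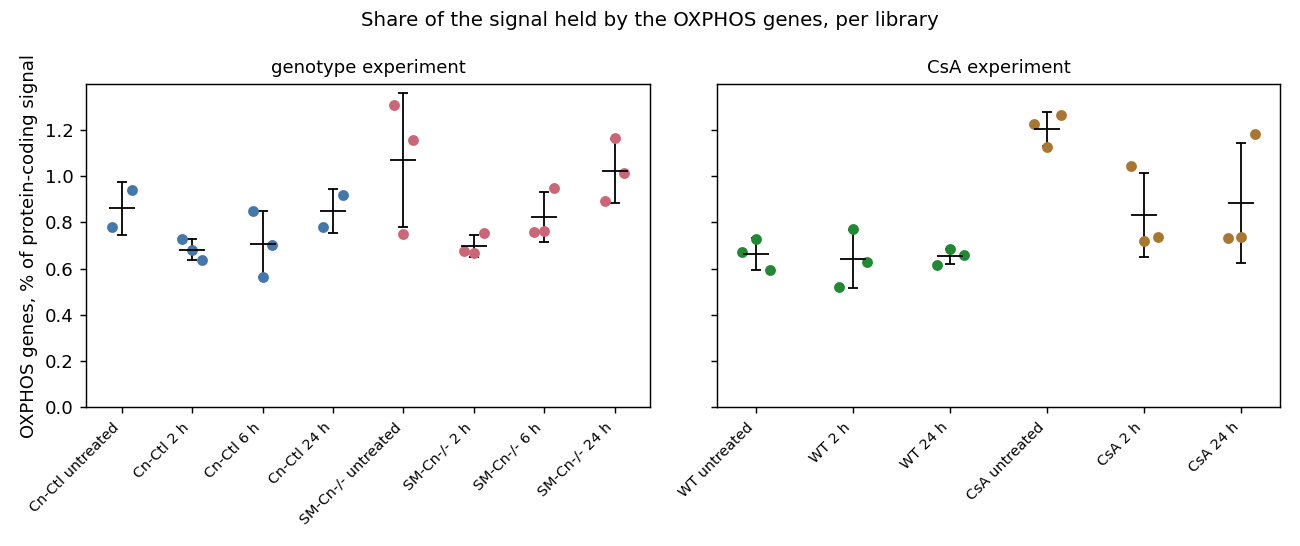
Share of the protein-coding signal held by the OXPHOS genes (y axis, percent) in each library (points) by group (x axis), with the mean (horizontal line) and SD (bars) of each group, for the genotype experiment (left) and the CsA experiment (right). The 3 untreated CsA libraries sit at 1.12% to 1.26%, above the 3 untreated WT libraries at 0.593% to 0.728%, and the untreated SM-Cn-/- libraries spread from 0.748% to 1.31%.

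The comparison of untreated CsA with untreated WT aortas, both without Ang-II, held the difference with the most OXPHOS genes called. The CsA mice differed from WT in the drug and in the pump that carried it. Marker sums of brown fat and of smooth muscle did not overlap between these groups either, as given below. The effect of the inhibitor alone was therefore not tested. Of the 91 genes, 71 passed the test, all of them higher in CsA, where 25.2% of the 13738 genes tested passed it in either direction and 13.9% passed it as higher. The median log2 difference was 0.71 over the OXPHOS genes and -0.02 over all genes tested, and the fitted difference was above 0 for 90 of the 91. For 76 of the 91 genes the 3 CsA libraries did not overlap the 3 WT libraries, as for 47.8% of all genes tested. Differences throughout are on the scale of log2(signal + 0.5) from limma fits across all genes, with Benjamini-Hochberg adjusted p-values and a threshold of 0.05, and since each library is a pool the p-values measure the spread between pools. An exact permutation of 3 libraries against 3 cannot give a two-sided p below 0.1 for a single gene.

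Genes of all 5 complexes rose. 31 of 36 complex I subunits rose (median 0.71), 4 of 4 complex II subunits (median 1.12), 9 of 9 complex III subunits (median 0.99), 10 of 10 general complex IV subunits (median 0.72) and 11 of 15 ATP synthase genes (median 0.64). Cycs, Cox7a2l and Ndufa4 also rose. Of the tissue isoforms 2 of 5 passed, Cox8b and Cox7a1, with the largest differences among the genes that passed. Of the complex I assembly factors only Ndufaf5 passed (log2 difference 0.46 ± 0.16 (SE), adjusted p = 0.0442), and their median was 0.27. The call of Ndufaf5 was present in 3 of 12 alternatives, with a difference from 0.22 to 0.63 and an adjusted p of up to 0.376, under quantile normalization.

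**Figure D2:**
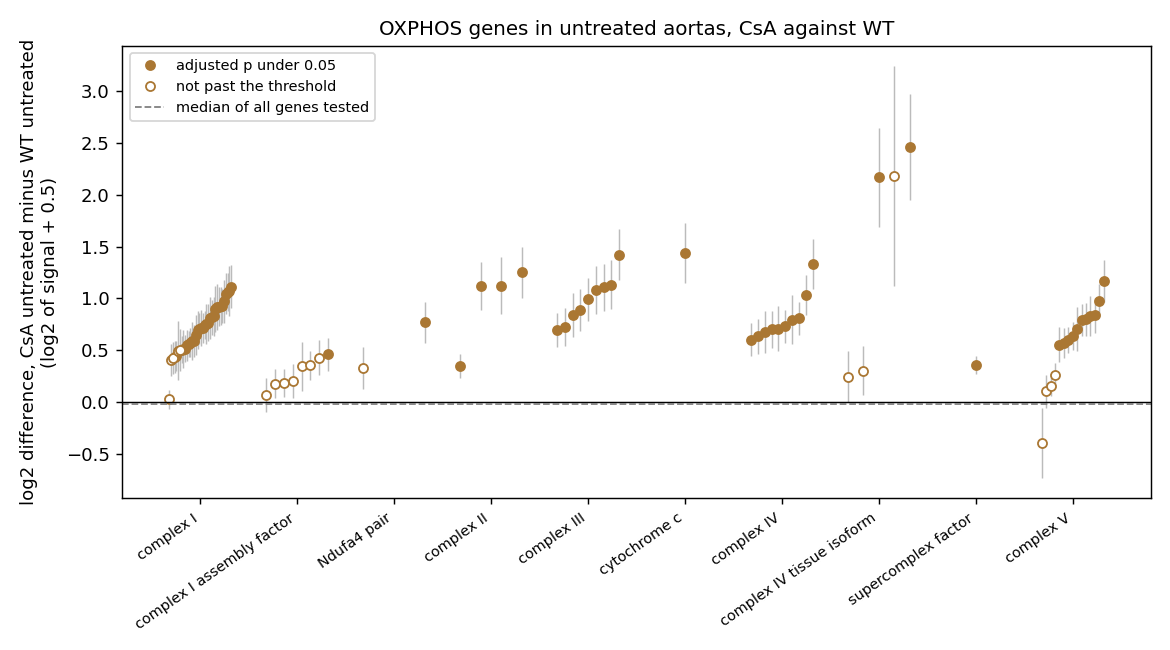
Fitted log2 difference of untreated CsA over untreated WT (y axis, on the log2(signal + 0.5) scale) for each OXPHOS gene, grouped by complex (x axis); filled points passed an adjusted p of 0.05, open points did not, grey bars are the standard error and the dashed line is the median of all genes tested. All points but Atp5g2 (-0.39) lie above 0, and Cox8b (2.46) and Cox7a1 (2.17) lie highest among the filled ones.

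Cycs, cytochrome c, which carries electrons from complex III to complex IV, had a signal of 30.7, 42.7 and 25.1 in WT and 87.5, 84 and 91.5 in CsA (log2 difference 1.44 ± 0.29 (SE), adjusted p = 0.00301). No CsA library overlapped a WT library. Uqcrfs1, the Rieske iron-sulfur protein of complex III, had a signal of 63, 73.7 and 54.4 in WT and 180.4, 154 and 178 in CsA (log2 difference 1.42 ± 0.25 (SE), adjusted p = 0.00152). Cyc1, the cytochrome c1 subunit of the same complex, had a signal of 83.5, 101 and 78.5 in WT and 214, 152 and 214 in CsA (log2 difference 1.13 ± 0.24 (SE), adjusted p = 0.00373). Uqcrc1, one of its core proteins, had a signal of 135, 156 and 137 in WT and 319.8, 233 and 305 in CsA (log2 difference 0.99 ± 0.21 (SE), adjusted p = 0.00380). In all 3 complex III genes CsA replicate 2 was the lowest CsA library and still lay above the WT libraries. Sdha, the flavoprotein subunit of complex II that oxidises succinate, had a signal of 211, 239 and 192 in WT and 546, 377 and 486 in CsA (log2 difference 1.12 ± 0.23 (SE), adjusted p = 0.00354). Sdhb, its iron-sulfur subunit, had a signal of 59.7, 69.6 and 55.7 in WT and 157, 129 and 157 in CsA (log2 difference 1.25 ± 0.25 (SE), adjusted p = 0.00283). In both catalytic subunits the lowest CsA library lay well above the highest WT library. The membrane anchors Sdhd and Sdhc, which hold the complex in the inner membrane, rose by unequal amounts: Sdhd had 54.8, 67.8 and 46.4 in WT and 135, 99.6 and 134 in CsA (log2 difference 1.12 ± 0.27 (SE), adjusted p = 0.00804). Sdhc had 111, 119 and 109 and 143, 147 and 143 (log2 difference 0.35 ± 0.11 (SE), adjusted p = 0.0322), the smallest of the called differences.

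Ndufv1, the NADH-binding flavoprotein of complex I, had a signal of 90.9, 104 and 86.8 in WT and 216, 169.5 and 200.2 in CsA (log2 difference 1.05 ± 0.20 (SE), adjusted p = 0.00213). Ndufs1, an iron-sulfur subunit of its peripheral arm, had a signal of 75.1, 84.5 and 71.2 in WT and 171, 134 and 151 in CsA (log2 difference 0.97 ± 0.21 (SE), adjusted p = 0.00390). Ndufa9 and Ndufb8, accessory subunits of complex I, had 53.7 ± 8.0 and 63.2 ± 9.80 in WT (mean ± SD, n = 3) and 102 ± 7.78 and 119.7 ± 18 in CsA, log2 differences of 0.92 and 0.91. Both subunits rose in CsA, as did the core subunits. In complex IV, Cox4i1 had 203, 230.0 and 192 in WT and 358, 340.1 and 397 in CsA (log2 difference 0.81 ± 0.16 (SE), adjusted p = 0.00262). Cox5a had 44.4, 52.4 and 41.8 and 122, 105 and 122 (log2 difference 1.33 ± 0.24 (SE), adjusted p = 0.00183), and its partner Cox5b had 56.5, 69.3 and 61.7 and 111, 80.7 and 119 (log2 difference 0.71 ± 0.22 (SE), adjusted p = 0.0261). Cox5a had the largest difference of the general complex IV subunits. Of the ATP synthase, Atp5b had 512, 582 and 498 in WT and 1282, 1046 and 1261 in CsA (log2 difference 1.17 ± 0.20 (SE), adjusted p = 0.00132). Atp5a1 had 413, 456 and 422 and 846, 714 and 751 (log2 difference 0.84 ± 0.17 (SE), adjusted p = 0.00284), and the gamma subunit Atp5c1, the turning shaft, had 120.1, 128 and 102 and 179.6, 164 and 186 (log2 difference 0.60 ± 0.13 (SE), adjusted p = 0.00380).

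The 2 tissue isoforms that rose belong to complex IV in heart, skeletal muscle and brown fat. Cox8b had 11.2, 17.6 and 6.43 in WT and 66.2, 47.2 and 76.4 in CsA (log2 difference 2.46 ± 0.51 (SE), adjusted p = 0.00356). Cox7a1 had 5.97, 9.09 and 3.99 and 30.8, 27.7 and 28.2 (log2 difference 2.17 ± 0.48 (SE), adjusted p = 0.00486). Their general counterparts rose less: Cox8a had 76.4, 84.6 and 83.4 and 137, 98.9 and 163 (log2 difference 0.68 ± 0.21 (SE), adjusted p = 0.0255), and Cox7a2 had 48.1, 56.8 and 42.1 and 72.4, 65.2 and 92 (log2 difference 0.63 ± 0.17 (SE), adjusted p = 0.0143). The difference between an isoform and its counterpart was not tested. Cox6a2, the heart and skeletal muscle isoform, had 4.87, 1.37 and 0.345 in WT and 15, 23.2 and 1.64 in CsA and did not pass (adjusted p = 0.142). It was high in the libraries with high heart muscle markers: Myh6, the heart myosin, had 223, 53.8 and 17.9 in WT and 568, 947 and 60.5 in CsA. Cox4i2, an isoform known for its response to low oxygen, had 2.82, 3.80 and 2.74 and 2.69, 4.50 and 4.33, and Cox6b2, the testis isoform, had 2.07, 1.59 and 1.36 and 2.09, 1.89 and 2.52, with overlapping groups.

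The 20 genes that did not pass the test were 7 of the 8 assembly factors, 3 tissue isoforms (Cox4i2, Cox6a2 and Cox6b2), Ndufa4l2, 5 complex I subunits (Ndufa3, Ndufa7, Ndufa11, Ndufb4 and Ndufv3) and 4 ATP synthase genes (Atp5g1, Atp5g2, Atp5g3 and Atp5j). Closest to the threshold lay Ndufa2, which passed with an unrounded value under 0.05 (adjusted p = 0.050) and Ndufa7, which did not (adjusted p = 0.0538). Ndufa11, a membrane arm subunit of complex I, had 41.2, 42.2 and 40.5 in WT and 40.8, 39.7 and 45.9 in CsA (log2 difference 0.03 ± 0.09 (SE), adjusted p = 0.858), the difference nearest to 0 in complex I. Atp5g1, Atp5g2 and Atp5g3 encode the same mature c subunit, the ring that turns in the membrane. Atp5g1 had 40.3, 39.5 and 46.8 in WT and 38.5, 60.8 and 39.6 in CsA (adjusted p = 0.666). Atp5g2 had 39.8, 59.3 and 43 and 40.0, 21.9 and 50.7 (log2 difference -0.39 ± 0.34 (SE), adjusted p = 0.414), and Atp5g3 had 113, 114 and 111 and 116, 173 and 123 (log2 difference 0.26 ± 0.12 (SE), adjusted p = 0.125). The c ring genes gave 0 calls of 3, against 11 of the 12 other ATP synthase genes.

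Genes around the respiratory chain moved the same way in this comparison. Of the enzymes of the citric acid cycle and pyruvate dehydrogenase, which feed NADH and succinate to the chain, 17 of 18 rose (median 1.00), among them Idh3a (log2 difference 1.45 ± 0.34 (SE), adjusted p = 0.00625), a subunit of isocitrate dehydrogenase, and Cs (0.91), the citrate synthase. Of the subunits encoded in the mitochondrial genome, 9 of 13 rose (median 0.84), for example mt-Nd3 (log2 difference 1.06 ± 0.24 (SE), adjusted p = 0.00509) and mt-Co2 (log2 difference 0.86 ± 0.28 (SE), adjusted p = 0.0348). Of the antioxidant and uncoupling genes 7 of 8 rose, with Ucp3 (2.42) and Sod2 (1.10) among them. Genes that assemble the complexes without being covered by the rule gave 11 of 42 higher (median 0.36), and carriers and import genes 6 of 24 (median 0.24); 0 genes of these 5 lists fell. Of 28 regulators of mitochondrial biogenesis 5 rose and 1 fell. The coactivators Ppargc1a (6.52, 7.62 and 5.45 in WT, 26.4, 16.1 and 17.2 in CsA, adjusted p = 0.0199) and Ppargc1b (4.43, 5.71 and 3.99 and 20.0, 9.15 and 12, adjusted p = 0.0239) rose, as did the nuclear receptor Esrra (25.8, 25.6 and 29.4 and 53.7, 44.7 and 48.8, adjusted p = 0.00262), with Ppara and Myc. Hif1a fell (log2 difference -0.52 ± 0.12 (SE), adjusted p = 0.00542). The mitochondrial transcription factor Tfam (log2 difference 0.34 ± 0.13 (SE), adjusted p = 0.0740) and the regulators Nrf1 (-0.15), Gabpa (0.09) and Yy1 (-0.10) did not pass the test.

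Markers of several tissues moved with this comparison. All 8 brown fat markers rose (median 2.13), their sum standing at 168, 311 and 165 in WT and 1162, 673 and 957 in CsA, with 0 markers at 0 reads. Ucp1, which defines brown fat, had 37.8, 119 and 48.8 and 410.1, 282 and 355. Of 10 general fat markers 8 rose, of 8 macrophage markers 8, and of 8 endothelial markers 7 rose and 1 fell, whereas 8 of 9 smooth muscle markers fell (median -0.76), with sums of 26544, 31724 and 36321 in WT and 17073, 19222 and 17759 in CsA. Of the 10 heart muscle markers 0 passed this test (median 1.75), with sums of 577, 253 and 163 and 1389, 2210.2 and 269.5. With the log2 brown fat sum as a further term in the fit, added after the values had been seen, 0 of the 91 genes passed (median log2 difference 0.12) and 4 of all genes tested. The sums do not overlap between the groups, so this term and the group are largely the same contrast here and cannot be told apart. Without CsA untreated replicates 1 and 2, the libraries with the most heart muscle signal, 1 CsA library remained. The median log2 difference was then 0.83 over the OXPHOS genes and -0.01 over all genes tested. Without any 1 library of these groups 50 to 68 passed. Of the remaining marker lists, 2 rose and 1 fell of 8 for fibroblasts and adventitia, 2 rose of 7 for blood, and 0 of 4 passed for skeletal muscle, 0 of 5 for nerve and 0 of 4 for sympathetic ganglion and lymphocytes. The part of the other tissues in the result was not tested further.

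To show the sequence in front of these genes, the 250 bases upstream of the annotated start were read from RefSeq promoters (GRCm38), which held 74 of the 91 genes in 79 windows. A set of 5 motifs known from OXPHOS promoters was searched on both strands, with capitals marking a match: the NRF1 core CGCANGCG, the ETS (GABP) motif CCGGAAGT, the ERR motif AAGGTCA, the YY1 motif AAGATGGC and the CRE TGACGTCA. None of these motifs contains another. The windows shown are of Cycs and Uqcrfs1, with large differences between CsA and WT among the general genes, of the isoforms Cox8b and Cox7a1, of Atp5g2, the gene with a fitted difference below 0, and of Cox7a2l, described further on. The Cox7a2l window lies inside the span of the gene given there. It precedes an internal annotated start and not the outer end of the gene.
Cycs, upstream of its start on the minus strand, GRCm38 chr6:50566570-50566819: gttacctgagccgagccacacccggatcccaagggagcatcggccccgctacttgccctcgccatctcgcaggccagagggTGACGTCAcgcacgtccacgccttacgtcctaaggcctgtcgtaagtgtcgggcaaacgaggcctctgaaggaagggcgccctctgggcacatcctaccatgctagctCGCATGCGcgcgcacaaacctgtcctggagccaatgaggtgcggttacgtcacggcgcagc
Uqcrfs1, upstream of its start on the minus strand, GRCm38 chr13:30545317-30545566: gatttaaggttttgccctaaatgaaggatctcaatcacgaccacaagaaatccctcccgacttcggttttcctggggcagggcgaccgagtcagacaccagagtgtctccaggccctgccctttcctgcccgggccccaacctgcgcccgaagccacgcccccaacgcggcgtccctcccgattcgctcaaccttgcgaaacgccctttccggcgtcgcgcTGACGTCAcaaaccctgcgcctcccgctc
Cox8b, upstream of its start on the minus strand, GRCm38 chr7:140900447-140900696: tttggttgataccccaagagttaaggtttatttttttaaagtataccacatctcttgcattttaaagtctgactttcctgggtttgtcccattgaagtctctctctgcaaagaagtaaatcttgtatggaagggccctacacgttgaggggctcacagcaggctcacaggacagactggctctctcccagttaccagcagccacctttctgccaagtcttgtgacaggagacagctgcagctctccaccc
Cox7a1, upstream of its start on the plus strand, GRCm38 chr7:30183921-30184170: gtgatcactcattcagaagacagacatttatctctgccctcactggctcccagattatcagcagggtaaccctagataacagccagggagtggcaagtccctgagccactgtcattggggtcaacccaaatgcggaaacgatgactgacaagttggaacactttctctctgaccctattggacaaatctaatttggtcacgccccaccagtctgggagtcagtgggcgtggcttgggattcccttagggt
Atp5g2, upstream of its start on the minus strand, GRCm38 chr15:102671048-102671297: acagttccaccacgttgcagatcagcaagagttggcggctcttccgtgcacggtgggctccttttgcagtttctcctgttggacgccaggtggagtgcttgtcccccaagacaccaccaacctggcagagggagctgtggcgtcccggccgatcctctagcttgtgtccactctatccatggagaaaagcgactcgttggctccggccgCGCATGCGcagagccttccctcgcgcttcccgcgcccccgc
Cox7a2l, upstream of its start on the minus strand, GRCm38 chr17:83514334-83514583: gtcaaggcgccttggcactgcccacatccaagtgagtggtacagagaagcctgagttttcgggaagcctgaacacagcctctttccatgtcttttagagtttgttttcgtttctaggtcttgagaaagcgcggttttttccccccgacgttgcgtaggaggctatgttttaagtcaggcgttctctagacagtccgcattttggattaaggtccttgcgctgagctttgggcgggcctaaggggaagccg

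The NRF1 core was in the windows of 21 of 74 OXPHOS genes (28.4%), 6.76% of all 32851 windows and 15.3% of the listed genes with a window. It was found in 14 of 58 genes that rose in CsA over WT and in 7 of the 16 others. Cycs has it 61 bases before the start and Atp5g2 41 bases before. The CRE was in 5 of 74 OXPHOS genes (6.76%), 1.55% of all 32851 windows and 2.94% of the listed genes with a window, with Cycs (169 bases before the start) and Uqcrfs1 (29 bases) among them. The ERR motif was in 5 of 74 OXPHOS genes (6.76%), 4.08% of all 32851 windows and 3.51% of the listed genes with a window. The ETS motif was in 3 of 74 OXPHOS genes (4.05%), 2.88% of all 32851 windows and 6.24% of the listed genes with a window, and the YY1 motif in 1 of 74 OXPHOS genes (1.35%), 1.56% of all 32851 windows and 2.25% of the listed genes with a window. For ETS and YY1 the share of OXPHOS genes lay below that of the listed genes. The windows of Cox8b, Cox7a1 and Cox7a2l, the last in front of an internal start, held none of the 5. The matches describe these letters in these windows and were not tested against the expression values.

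The response to Ang-II itself was compared within each group. In WT at 2 h, 0 of 91 OXPHOS genes passed the limma test (2 at an unadjusted p under 0.05, and 0 by edgeR and by DESeq2), where 21.4% of all genes tested did; the median was 0.14 (all genes 0.02). At 24 h, 2 genes passed where 35% of all genes did, with a median of 0.02. Cox7a2l fell (log2 difference -0.55 ± 0.09 (SE), adjusted p = 0.000165). Ndufaf4, an assembly factor of complex I, had 25.6, 23.4 and 21.3 untreated and 29.4, 32.7 and 28.8 at 24 h and rose (log2 difference 0.37 ± 0.14 (SE), adjusted p = 0.0467), a call lost when any library other than WT untreated replicate 1 was left out. Between 24 h and 2 h in WT, 4 genes passed (36.2% of all genes): Cox7a2l, Sdhc and Ndufa13 fell by 0.48, 0.34 and 0.35 on the log2 scale, and Ndufaf4 rose by 0.53. The count was 2 without WT 2 h replicate 2 or 3 or WT 24 h replicate 1 or 2. These WT counts depended on whether brown fat was a term in the fit. With its marker sum as a term, added after the values had been seen, 5 genes passed at 2 h, all lower, and 36 at 24 h, of which 35 were lower (median -0.25, with 4598 of the 13738 genes tested called). For 24 h over 2 h it was 18, of which 17 were lower. Of all genes tested, the fit with this term called 3236 at 2 h and 5515 for 24 h over 2 h.

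In CsA aortas most fitted differences of Ang-II over untreated were below 0. At 2 h, 4 of 91 genes passed, all lower, where 20.1% of all genes passed (7.84% as lower); 89 of 91 fitted values were negative (median -0.29, all genes -0.02). Ndufs7, an iron-sulfur subunit of complex I, had 74, 76.5 and 86 untreated and 69.3, 51.5 and 43.9 at 2 h (log2 difference -0.54 ± 0.14 (SE), adjusted p = 0.0143). Ndufa8 (65.4, 62.1 and 59.3 and 49.9, 43 and 39.7, adjusted p = 0.0159) and Atp5g1 (38.5, 60.8 and 39.6 and 29.5, 30.4 and 37.9, adjusted p = 0.0469) also fell. Cox6a2 passed as lower too, with 15, 23.2 and 1.64 untreated and 0.332, 0.0223 and 1.47 at 2 h. The latter are values near 0 at which the fitted difference depends on the added 0.5. The heart muscle sums of these libraries were 1389, 2210.2 and 269.5 untreated and 127, 143 and 191 at 2 h. The part of heart muscle in this call was not tested. The count changed with single libraries: without CsA 2 h replicate 1, whose brown fat sum was 1218 against 594 and 308 in the others, 24 genes passed, and without replicate 2 or 3 it was 0 and 2. Replicate 1 at 2 h was the highest of its group for 80 of 91 genes. How many of all genes tested were called in these refits is not given here. Without CsA untreated replicates 1 and 2, 1 untreated library remained and the median log2 difference was -0.43. Under quantile normalization 19 of 91 passed, all lower, beside 2386 of the 13738 genes tested.

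At 24 h in CsA, 6 of 91 genes passed, all lower, where 8.98% of all genes passed (3.77% as lower; median -0.29, all genes -0.02). These were Cox7a2l (log2 difference -0.54 ± 0.09 (SE), adjusted p = 0.00221), Ndufs7 (-0.56), Ndufa13 (-0.44), Sdhc (-0.38), Ndufs1 (-0.69) and Cox4i2 (-0.81). Sdhc had 143, 147 and 143 untreated and 94.1, 109.9 and 132 at 24 h, and Cox4i2 had 2.69, 4.50 and 4.33 and 1.83, 2.10 and 1.88. Replicate 3 at 24 h was the highest of its group for 82 of 91 genes and had a brown fat sum of 1179 against 373 and 384 in the other two. Without it 40 genes passed, all lower, and without any 1 of the other libraries of the comparison 1 to 3. The numbers of all genes called in these refits are not given here. The counts therefore show a dependence on single libraries and not a result about the OXPHOS genes. Without CsA untreated replicates 1 and 2 together, 1 untreated library remained and the median log2 difference was -0.44. Between 24 h and 2 h in CsA, 3 genes passed (18% of all genes): Cox7a2l and Cox4i2 fell by 0.37 and 0.89 on the log2 scale, and Atp5g1 rose from 29.5, 30.4 and 37.9 to 52.9, 51.5 and 45.3 (log2 difference 0.61 ± 0.16 (SE), adjusted p = 0.0160). The count was 1 without CsA 2 h replicate 2 or CsA 24 h replicate 1. With the brown fat term it was 9, 7 of them higher, beside 3093 of all genes tested.

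Treated CsA aortas were next set against treated WT aortas. At 2 h, 0 genes passed the limma test (16 at an unadjusted p under 0.05, 0 by edgeR and by DESeq2; 1.33% of all genes passed), with a median of 0.29. At 24 h, 2 genes passed, both higher in CsA (5.58% of all genes, 2.03% as higher), with a median of 0.42 and 65 of 91 genes without overlap (27% of all genes): Cox7a2l (log2 difference 0.36 ± 0.09 (SE), adjusted p = 0.0236) and Ndufv3, which had 46.8, 41.4 and 43.9 in WT and 60.3, 62.8 and 77 in CsA (log2 difference 0.59 ± 0.16 (SE), adjusted p = 0.0413). DESeq2 on recovered reads gave 24 genes, edgeR and quantile normalization 4 each, and the fit with the brown fat term 24, all higher in CsA. That last fit called 988 of all genes tested, a number not given here for the other fits. Without WT 24 h replicate 1 or 2, or CsA 24 h replicate 2 or 3, the limma count was 0, and without CsA 24 h replicate 1 it was 6. General fat sums at 24 h were 2811, 2563 and 2831 in WT and 3867, 5120 and 8978 in CsA. Endothelial sums were 712, 688 and 820 and 824, 844 and 1345. Fibroblast and heart muscle sums were lower in CsA without overlap, and those of brown fat and smooth muscle overlapped. The part of these tissues was not tested. The test of whether the response to Ang-II differed between CsA and WT gave 0 genes at 2 h (28 at an unadjusted p under 0.05, 0 by edgeR and DESeq2; 0.146% of all genes) and 0 at 24 h (11 at an unadjusted p under 0.05, 0 by edgeR and 3 by DESeq2; 9.42% of all genes). Without CsA 24 h replicate 3 the count at 24 h was 24, all lower in CsA, and without WT 24 h replicate 3 or CsA untreated replicate 3 it was 1. The matching numbers over all genes tested are not given here. These comparisons share the untreated libraries.

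**Figure D3:**
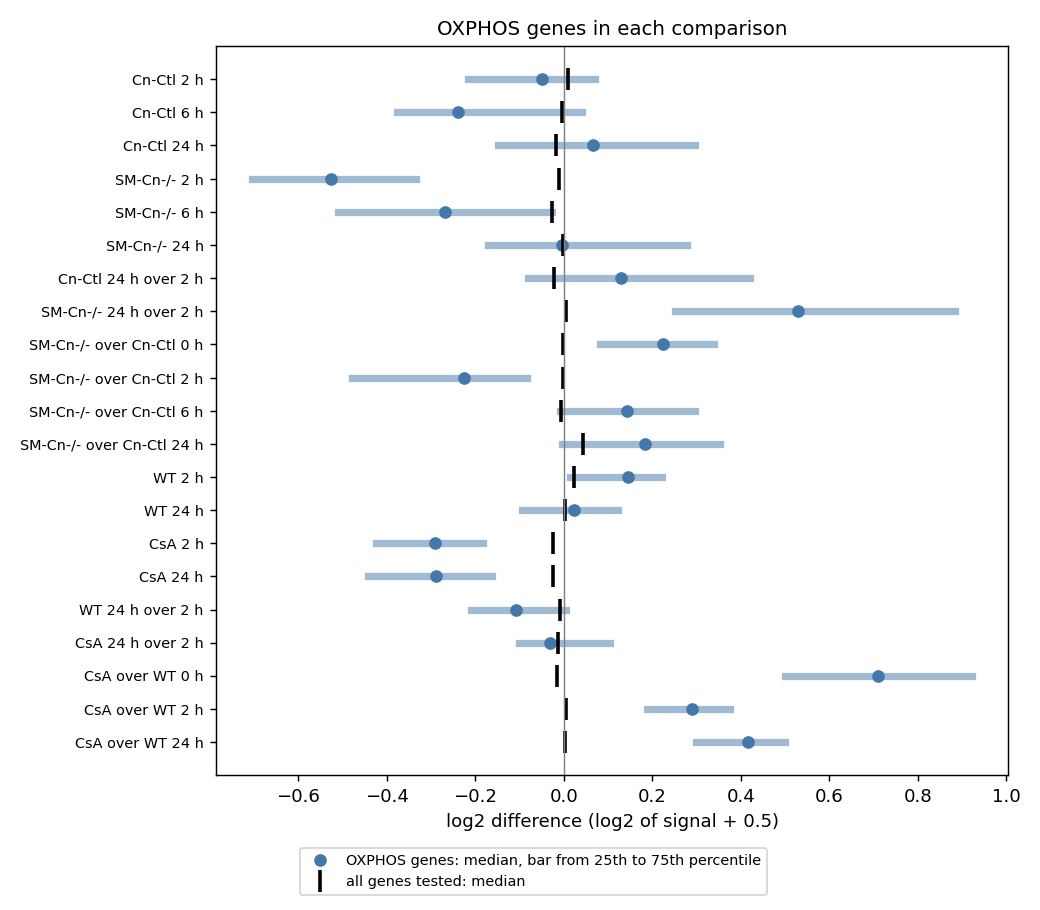
Median (points) and 25th to 75th percentile (bars) of the fitted log2 differences of the OXPHOS genes in each comparison (rows), with the median of all genes tested (ticks); the x axis is on the log2(signal + 0.5) scale, rows such as "CsA 2 h" are Ang-II over untreated, and comparisons share control libraries. CsA over WT untreated lies furthest to the right (0.71), followed by SM-Cn-/- at 24 h over 2 h (0.53), and SM-Cn-/- at 2 h furthest to the left (-0.53).

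In Cn-Ctl aortas few OXPHOS genes passed the test after Ang-II. At 2 h and 6 h, 0 of 90 genes passed the limma test (1 and 7 at an unadjusted p under 0.05, 0 and 0 by edgeR, 0 and 1 by DESeq2), where 6.23% and 3.97% of all genes passed. Without Cn-Ctl 6 h replicate 1, 3 genes passed as lower at 6 h, and with the brown fat term 6 did, beside 628 of all genes tested. At 24 h, 2 genes passed where 5.62% of all genes did. Cox7a2l fell (log2 difference -0.85 ± 0.22 (SE), adjusted p = 0.0256), and Atp5g2 rose from 33 and 36.2 to 77.2 and 76 (log2 difference 1.14 ± 0.31 (SE), adjusted p = 0.0341). With 2 libraries in each group, the call of Atp5g2 was lost when any of the 4 was left out, and that of Cox7a2l without either untreated library or without 24 h replicate 3. Between 24 h and 2 h, Atp5d, the delta subunit of the ATP synthase, rose from 44.8, 42.6 and 32.5 to 76.5 and 95.1 (log2 difference 1.10 ± 0.33 (SE), adjusted p = 0.0473; 7.37% of all genes passed). This call was lost when any of the 5 libraries was left out.

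In aortas labelled SM-Cn-/-, 85 of 90 fitted values were negative at 2 h of Ang-II (median -0.53, all genes -0.01), but 0 genes passed the limma test (42 at an unadjusted p under 0.05, 0 by edgeR and 9 by DESeq2), where 1.13% of all genes passed. Untreated replicate 2 stood apart from its group: it was the lowest of the 3 for 76 of 90 genes, and its brown fat sum was 146 against 917 and 755 in replicates 1 and 3. Without it 14 genes passed at 2 h, all lower, and without 2 h replicate 3 it was 1. For these refits and the one at 6 h, the numbers of all genes called are not given here. At 6 h, 0 genes passed (26 at an unadjusted p under 0.05, 0 by edgeR, 6 by DESeq2), where 2.34% of all genes passed. Without untreated replicate 2 the count was 10, all lower. With the brown fat term it was 11, all lower, beside 491 of all genes tested. At 24 h Atp5g2 passed, with 24.1, 42 and 37.8 untreated and 69.8, 78.5 and 72.2 at 24 h (log2 difference 1.11 ± 0.26 (SE), adjusted p = 0.0403; 0.79% of all genes passed). The call was lost when any of the 6 libraries was left out.

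The change from 2 h to 24 h within SM-Cn-/- gave the most calls of the genotype experiment. Of 90 genes 17 passed, all higher at 24 h, where 3.65% of all genes passed in either direction and 2.05% as higher. The median was 0.53 (all genes 0.00), 83 of 90 fitted values were positive, and 54 of 90 genes did not overlap between the groups (29.5% of all genes). They were 6 of 36 complex I subunits (Ndufb7, Ndufs7, Ndufa2, Ndufa7, Ndufa8 and Ndufv1), 3 of 9 in complex III (Uqcr11, Uqcrq and Uqcr10), 1 of 4 in complex II (Sdhb), Cox6a1, the isoforms Cox8b and Cox7a1, and 4 of 15 in the ATP synthase (Atp5d, Atp5k, Atp5l and Atp5g2). Uqcr11, a small subunit of complex III, had 7.75, 10.2 and 20.9 at 2 h and 35.2, 48.4 and 56.8 at 24 h (log2 difference 1.91 ± 0.37 (SE), adjusted p = 0.00636). Atp5d had 22.7, 26 and 51.3 and 79.3, 101 and 106 (log2 difference 1.59 ± 0.30 (SE), adjusted p = 0.00580), and Ndufs7 had 6.45, 7.77 and 14.9 and 25.1, 30.7 and 32.1 (log2 difference 1.62 ± 0.36 (SE), adjusted p = 0.0146). In each of these the 3 libraries at 24 h lay above the 3 at 2 h. Cox8b had 6.59, 4.80 and 8.81 at 2 h and 34.2, 73.4 and 69.3 at 24 h (log2 difference 3.00 ± 0.74 (SE), adjusted p = 0.0261), and Cox7a1 had 7.75, 6.69 and 4.44 and 23.3, 47.6 and 49.1 (log2 difference 2.53 ± 0.71 (SE), adjusted p = 0.0494). Other subunits with high levels moved less: Atp5b had 677, 595 and 534 and 677, 896 and 678 (log2 difference 0.31, adjusted p = 0.482), and Atp5a1 had 427, 399.9 and 392 and 487, 594 and 403 (log2 difference 0.27, adjusted p = 0.549).

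Beside this count, the summed brown fat markers were 329, 269 and 162 at 2 h and 787, 1404 and 832 at 24 h, without overlap, though 0 of the 8 markers passed the test (median 1.62). Smooth muscle sums were 27774, 26659 and 33087 and 28282, 25992 and 25294, and 1 of 9 smooth muscle markers fell while 2 of 10 general fat markers rose. Endothelial sums did not overlap either (878, 932 and 725 at 2 h, 1234, 1195 and 1163 at 24 h). Nor did those of general fat (2471, 1942 and 2111, then 3052, 4304 and 3088) and blood (160, 365 and 227, then 507, 2257 and 637). Sums of smooth muscle, fibroblast, macrophage and heart muscle markers overlapped. With the brown fat sum as a term, added after the values had been seen, 2 of the 90 genes passed, beside 169 of all genes tested. Leaving out 2 h replicate 1, 2 or 3 gave 0, 2 and 26 genes, and leaving out 24 h replicate 1, 2 or 3 gave 10, 3 and 2. For these refits the numbers of all genes called are not given here. DESeq2 gave 29 and edgeR 16. The part of brown fat in the result was not tested further, and that of the other tissues was not tested. Of the other lists, 0 of 18 citric acid cycle genes passed (median 0.26), 1 of 13 mitochondrially encoded subunits, mt-Nd6 (log2 difference 1.44 ± 0.28 (SE), adjusted p = 0.00702), 2 of 24 carriers and import genes (Tomm40 and Timm13), 2 of 8 antioxidant genes (Gpx1 and Prdx5) and 1 of 42 assembly factors outside the rule (Ecsit), all higher. Among the regulators Esrra rose from 3.12, 4.66 and 3.80 to 13.4, 19.4 and 14.3 (log2 difference 1.89 ± 0.43 (SE), adjusted p = 0.0166) and Nrip1, a corepressor of oxidative genes, fell (log2 difference -1.07 ± 0.30 (SE), adjusted p = 0.0471). Ppargc1a had 22.2, 14.7 and 3.64 and 8.62, 8.73 and 14.5 and did not pass.

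Between the genotypes at the same time, 0 of 90 genes passed the limma test when untreated, at 2 h or at 6 h (1, 14 and 4 at an unadjusted p under 0.05, 0 by edgeR at each time, and 0, 4 and 0 by DESeq2), where 0.0139%, 3.7% and 1.98% of all genes passed. Without Cn-Ctl 2 h replicate 3, 4 genes passed as lower in SM-Cn-/- at 2 h, and without SM-Cn-/- 2 h replicate 3, 2 did. At 24 h, 2 genes passed (4.94% of all genes): Cox7a2l was higher (log2 difference 1.27 ± 0.20 (SE), adjusted p = 0.000690) and Atp5g1 lower in SM-Cn-/-, with 66.8 and 62.5 in Cn-Ctl and 30.0, 38.7 and 38.5 in SM-Cn-/- (log2 difference -0.86 ± 0.25 (SE), adjusted p = 0.0453). The call of Atp5g1 was lost when any of the 5 libraries was left out, and by edgeR. The response to Ang-II differed between the genotypes for 0 genes at 2 h (10 at an unadjusted p under 0.05) and for 0 at 6 h (0), with 0 by edgeR and by DESeq2 at both (0.513% and 0.0624% of all genes passed), and for 1 gene, Cox7a2l, at 24 h (0.513% of all genes).

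Cox7a2l encodes a relative of the COX7A subunits that has been described as joining complex III to complex IV in supercomplexes. Whether its protein does so in these mice was not tested. The gene lies on chromosome 17 (GRCm38 chr17:83501918-83517330, minus strand). In Cn-Ctl its signal was 121 and 111 untreated, 85.6, 101 and 97.8 at 2 h, 96.9, 83.8 and 81.7 at 6 h and 68.9 and 60.2 at 24 h. In SM-Cn-/- it was 167, 87.4 and 104, 129, 109 and 121, 130.3, 124 and 107 and 164, 163 and 142. The Cn-Ctl libraries at 24 h lay below all other libraries of the experiment, and those of SM-Cn-/- at 24 h lay above all Cn-Ctl libraries. The response at 24 h differed between the genotypes by 1.28 ± 0.29 log2 units (SE, interaction term of the limma fit, adjusted p = 0.0438). This call was present in 7 of 16 alternatives, with adjusted p from 0.00441 to 0.253 and a difference from 1.08 to 1.55. It was lost by edgeR and when either Cn-Ctl untreated library, Cn-Ctl 24 h replicate 3, SM-Cn-/- untreated replicate 2 or 3, or any SM-Cn-/- 24 h library was left out.

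In the CsA experiment Cox7a2l fell at 24 h in both groups. In WT it was 103, 101 and 92 untreated, 91.1, 100.2 and 90.3 at 2 h and 69.2, 59.7 and 73.8 at 24 h. In CsA it was 118, 131 and 129.7, 113, 116 and 107 and 81.1, 86.9 and 92.7. The 24 h libraries lay below the untreated ones without overlap in both groups, and the 24 h call was present in 12 of 12 alternatives in WT and in 12 of 12 in CsA. CsA libraries lay above WT libraries at each time, with a log2 difference of 0.35 untreated and 0.36 at 24 h that passed, and of 0.26 at 2 h (adjusted p = 0.134). The response at 24 h did not pass a test of a difference between CsA and WT (log2 difference 0.01 ± 0.12 (SE), adjusted p = 0.968). Cox7a2l shares 13.8% of its 50-base stretches with other annotated transcripts, mostly of Gm6969, so that its reads may be divided between them.

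**Figure D4:**
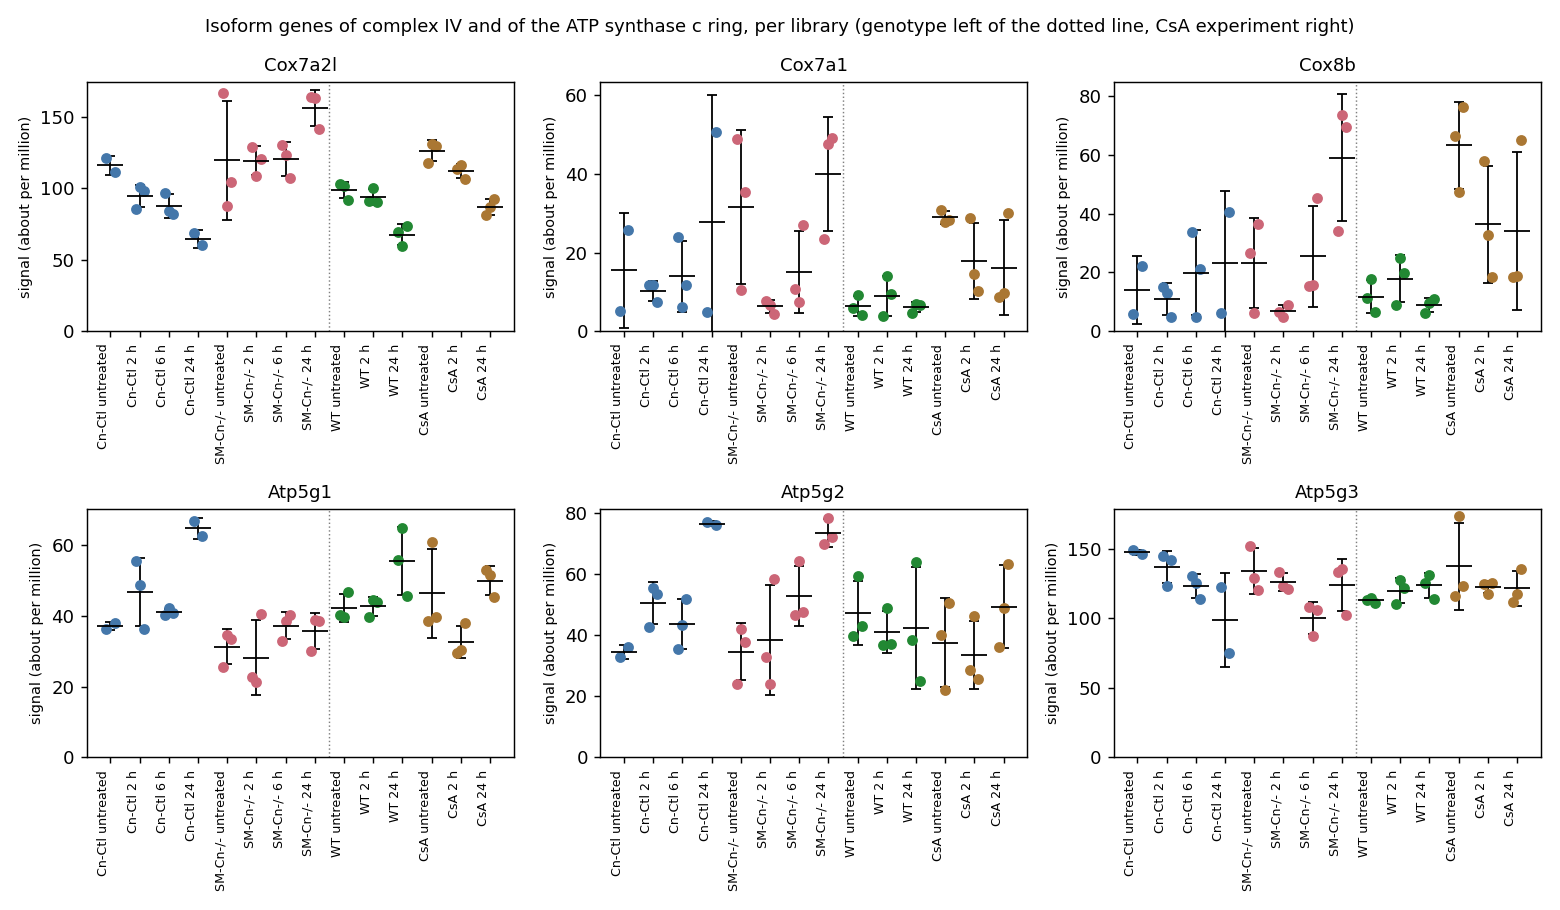
Signal (y axis, deposited units) in each library (points) by group (x axis), with the mean (horizontal line) and SD (bars), for Cox7a2l, Cox7a1, Cox8b and the 3 ATP synthase c ring genes; the dotted line divides the genotype from the CsA experiment. Cox7a2l is lowest at 24 h in Cn-Ctl (60.2 and 68.9) and highest at 24 h in SM-Cn-/- (142 to 164) among the treated groups, and Cox8b and Cox7a1 vary from library to library within groups.

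The c ring genes were among the few called after Ang-II: Atp5g2 rose at 24 h in both genotypes, and Atp5g1 differed between times in CsA and between genotypes at 24 h. In Cn-Ctl, Atp5g1 had 36.3 and 37.9 untreated and 66.8 and 62.5 at 24 h (adjusted p = 0.0919), and Atp5g3 had 149 and 146 and 123 and 74.9 (adjusted p = 0.0893). In WT, Atp5g2 had 39.8, 59.3 and 43 untreated and 38.4, 64.1 and 24.9 at 24 h, a spread between replicates wider than the difference (adjusted p = 0.629). Of the 50-base stretches of Atp5g2, 38.3% also lie in transcripts of other genes, mostly Gm10175, and of Atp5g1 11.1%. Such sharing is common among the OXPHOS genes: 34 of 91 share over 5% of their stretches, among them Cycs (26.1%), Atp5o (41.6%) and Ndufaf2 (64.1%), and their counts depend on how the authors' program divided such reads.

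Across all groups, the widest ranges of group means among genes with a mean signal of at least 5 belonged to Cox8b (3.00 and 2.77 log2 units in the genotype and the CsA experiment) and Cox7a1 (2.53 and 2.18). They were followed by Uqcr11 (1.91), Ndufa11 (1.78) and Ndufb7 (1.73) in the genotype experiment and by Cycs (1.44), Uqcrfs1 (1.42) and Cox5a (1.33) in the CsA experiment. The narrowest were Ndufa9 (0.27), Atp5a1 (0.28) and Atp5f1 (0.39) in the former and Ndufa11 (0.24), Atp5g3 (0.26) and Ndufaf2 (0.30) in the latter. Ndufa11 was thus among the widest in one experiment and the narrowest in the other.

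Library by library, a high share of OXPHOS signal went with a high sum of brown fat markers in both experiments. The 5 CsA experiment libraries with a share above 1% had brown fat sums of 673 to 1218, and the 13 others 165 to 594. In the genotype experiment the 4 libraries above 1% had sums of 755 to 1404, and the 18 others 131 to 892. The libraries of one group differed in both measures, as in SM-Cn-/- untreated, where the sums were 917, 146 and 755 beside shares of 1.31, 0.748 and 1.157%. The 8 markers are expressed in brown fat and, for Ppara and Cpt1b, also in other oxidative tissues, and Ppara is also in the list of regulators.

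**Figure D5:**
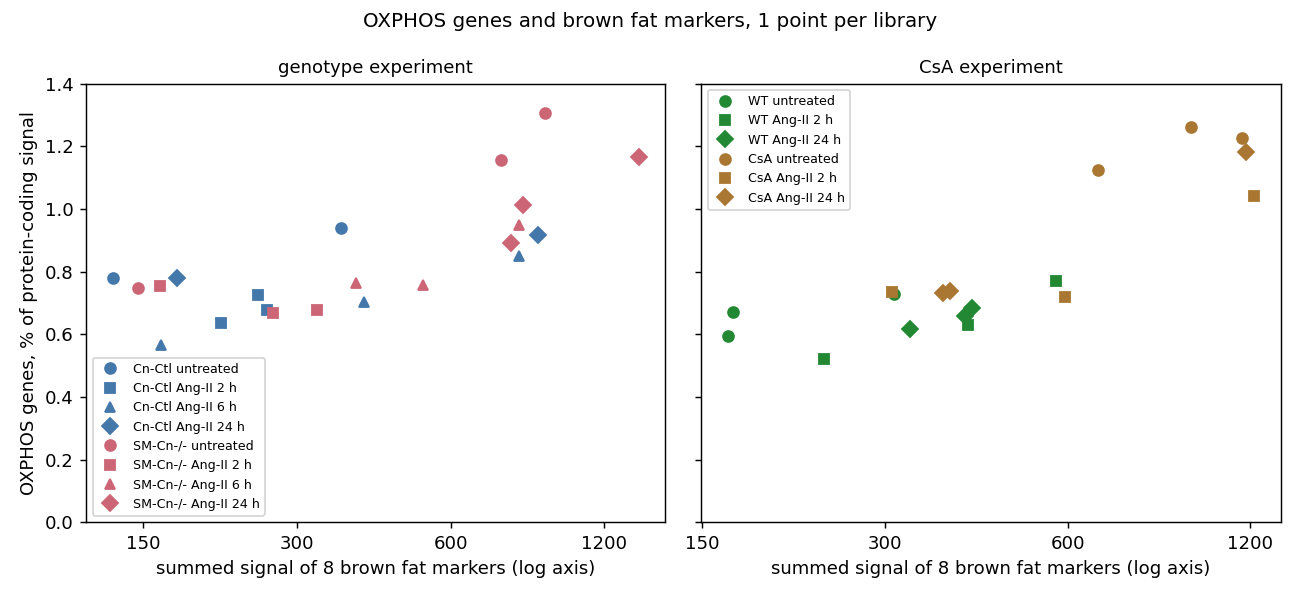
Share of the protein-coding signal held by the OXPHOS genes (y axis, percent) against the summed signal of 8 brown fat markers (x axis, log scale) in each library of the genotype (left) and the CsA experiment (right), with color for the arm and shape for hours of Ang-II. Libraries with a share above 1% all have a brown fat sum of at least 673.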

How the data were processed

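RNA-seq libraries of pooled aortas (22 in the genotype experiment, 18 in the CsA experiment) were compared. Per the submitters' processing notes, reads were handled with Bowtie 0.12.7 and RSEM 1.16 on GRCm38. The deposited signal is, per gene and library, the authors' RSEM read estimate with 0.5 added, scaled to the size of its library, and whole reads were recovered from it for all values within 0.01 read. Precision from depth covers counting error only. The 2 tables were normalized separately, so tests stayed within each.

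Values were tested as log2(signal + 0.5) with limma 3.58.1 (R 4.3.3; trended variance, group means, all groups of a table in one fit) over protein-coding genes with a signal of at least 1 in at least 2 libraries: 14424 genes in the genotype experiment, after leaving out 2952 of other biotypes and 26 not in the annotation, and 13738 of 13741 in the CsA experiment, after leaving out 1643 and 15. P-values were Benjamini-Hochberg adjusted within a comparison over all genes tested and called under 0.05. Alternatives were a pseudocount of 1, a mean signal of at least 5, quantile normalization, edgeR 4.0.16 and DESeq2 1.42.0 on recovered reads, a replicate block, and leaving out each library. For CsA over WT untreated limma called 3464 genes of all tested, edgeR 3463 and DESeq2 4189, and for SM-Cn-/- at 24 h over 2 h 526, 499 and 1224. The OXPHOS genes and the other lists were chosen with earlier results of these data known. Genes named were, per comparison, the 5 with the largest called differences in each direction, a fixed set of central subunits and isoform sets, the 5 with the widest and the 5 with the narrowest range of group means in each table, those called in an interaction, and the regulators. Ndufaf5, Ndufa2, Ndufa7, Ndufs7 at 24 h and other genes named to complete a count were chosen after their values were seen.

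The fit was tested on simulated data: with known changes of 1.5-, 2- and 4-fold, 28.4%, 80.6% and 95.5% were found for CsA over WT untreated (13738 genes), and 4.48%, 20.9% and 87.9% for SM-Cn-/- at 24 h over 2 h (14424 genes). The changed genes found were 19, 54 and 63 in the former and 3, 14 and 58 in the latter. In each simulation 9 unchanged genes were called as well. Only 67, 67 and 66 genes were changed, against 3464 and 526 called in the real comparisons. The libraries were drawn without tissue differences, so the rates hold for that setting and not for the real comparisons. Deviations from the group means correlated weakly between libraries of the same replicate number. The medians for replicates 1, 2 and 3 were 0.14, 0.01 and 0.10 in the genotype experiment and -0.04, -0.06 and 0.05 in the CsA experiment. Single pairs ran from -0.37 to 0.34 in the former and from -0.39 to 0.38 in the latter.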

Additional observations from a re-analysis of the deposited data

Results flagged for a closer look

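One result stood out because the effect of the same contrast differed between groups: Cox7a2l after 24 h of Ang-II. Its response in the aortas labelled SM-Cn-/- lay 1.28 log2 units above that in Cn-Ctl by the interaction term of the limma fit (SE 0.29, adjusted p = 0.0438). The signal was lower at 24 h than untreated in 2 of 2 Cn-Ctl libraries and, in SM-Cn-/-, it was 164, 163 and 142 at 24 h against 167, 87.4 and 104 untreated. Over the 16 alternatives the adjusted p ran from 0.00441 to 0.253, and the cause was not tested.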

How the results depend on the processing

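Counts of OXPHOS genes called by limma were set beside those of each alternative. Where the number of all genes called is not given, such counts show a dependence on the setting only. For CsA over WT untreated they stayed at 69 to 72 of 91 under the pseudocount of 1, the mean signal of 5, quantile normalization, edgeR, DESeq2 and the block, and quantile normalization moved the median of all genes there by -0.11. Under quantile normalization the count was 1 for Cn-Ctl 6 h, 3 for SM-Cn-/- 6 h, 2 for Cn-Ctl 24 h over 2 h, 19 for CsA 2 h, 4 for CsA over WT 24 h and 1 for the difference of the CsA and WT responses at 24 h. With a mean signal of 5 it was 1 for SM-Cn-/- over Cn-Ctl 2 h. By edgeR it was 1 for SM-Cn-/- over Cn-Ctl 24 h, 0 for the difference of the genotype responses at 24 h, 1 for WT 24 h and 4 for CsA over WT 24 h. By DESeq2 it was 1 for Cn-Ctl 6 h, 9 for SM-Cn-/- 2 h, 6 for SM-Cn-/- 6 h, 29 for SM-Cn-/- 24 h over 2 h, 4 for SM-Cn-/- over Cn-Ctl 2 h, 24 for CsA over WT 24 h and 3 for the CsA response difference at 24 h.

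Libraries of the same replicate number were only weakly correlated. With the replicate block the count was 1 for Cn-Ctl 6 h, 1 for SM-Cn-/- 2 h, 2 for SM-Cn-/- 6 h, 1 for SM-Cn-/- over Cn-Ctl 2 h, 1 for SM-Cn-/- over Cn-Ctl 24 h, 1 for CsA over WT 24 h and 25 for SM-Cn-/- 24 h over 2 h.

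Further alternatives were chosen after seeing the data. With the brown fat sum as a term the count was 6 for Cn-Ctl 6 h, 11 for SM-Cn-/- 6 h, 2 for SM-Cn-/- 24 h, 0 for Cn-Ctl 24 h over 2 h, 2 for SM-Cn-/- 24 h over 2 h, 2 and 1 for SM-Cn-/- over Cn-Ctl at 2 h and 24 h, 5 for WT 2 h, 36 (35 of them lower) for WT 24 h, 18 for WT 24 h over 2 h, 9 for CsA 24 h over 2 h, 0 for CsA over WT untreated and 24 for CsA over WT 24 h. In CsA over WT untreated that term turned the sign of 13 genes that had been called: Cox5b (-0.18), Cox7a2 (-0.00052), Cox7b (-0.17), Cox8a (-0.090), Ndufa12 (-0.074), Ndufa4 (-0.041), Ndufa6 (-0.19), Ndufab1 (-0.036), Ndufb8 (-0.00083), Ndufc1 (-0.12), Ndufs4 (-0.018), Sdhc (-0.033) and Sdhd (-0.038). Leaving out CsA untreated replicates 1 and 2 left 1 library in that group. The median log2 difference was then 0.83 for CsA over WT untreated, -0.43 for CsA 2 h and -0.44 for CsA 24 h. The cause of these changes was not tested.

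Leaving out 1 library gave 50 to 68 genes for CsA over WT untreated, 0 to 6 for CsA over WT 24 h, 0 to 24 for CsA 2 h, 1 to 40 for CsA 24 h, 1 to 3 for CsA 24 h over 2 h, 0 to 24 for the CsA response difference at 24 h, 1 to 2 for WT 24 h, 2 to 5 for WT 24 h over 2 h, 0 to 2 for Cn-Ctl 24 h, 0 to 1 for Cn-Ctl 24 h over 2 h, 0 to 3 for Cn-Ctl 6 h, 0 to 14 for SM-Cn-/- 2 h, 0 to 10 for SM-Cn-/- 6 h, 0 to 1 for SM-Cn-/- 24 h, 0 to 26 for SM-Cn-/- 24 h over 2 h, 0 to 4 and 1 to 3 for SM-Cn-/- over Cn-Ctl at 2 h and 24 h, and 0 to 1 for the genotype response difference at 24 h. The numbers of all genes called in these refits are not given, so the ranges show a dependence on single libraries only. The ratio of summed signal was 1.73 to 1.90 for CsA over WT untreated and 1.32 to 1.49 for SM-Cn-/- 24 h over 2 h.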
